A study of Mus musculus with 8 samples.

Results

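Interleukin-6 signals to hepatocytes through a short relay of proteins. In mouse liver 10 genes of that relay and of signalling beside it were followed: Il6ra, Il6st, Stat3, Socs3, Jak1, Jak2, Cebpb, Cebpd, Osmr and Il1rn. They were chosen by name for their place in IL-6 and STAT3 signalling, with earlier results of these data known. They are 10 of the 54309 genes in the count table. Each of the 10 was detected in all 8 libraries and passed the filter on low counts. Male C57BL/6J mice ate a fructose, palmitate and cholesterol diet for 16 weeks to bring on steatohepatitis (NASH), so the control livers are diseased livers too. Between weeks 8 and 16 they were injected into the peritoneum with IgG, the control, or with anti-CD47 at 200 µg per mouse. CD47 on a cell's surface engages SIRPα, a macrophage receptor, and holds back engulfment. Whole liver was measured in 4 libraries per antibody, named IgG 1 to 4 and antiCD47 1 to 4. The labels do not tie a library to one of the 7 to 8 mice in each group, and neither the age of the mice nor a lean group is described in them.

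In the classical route IL-6 binds its receptor, the product of Il6ra, and the pair recruits gp130, the product of Il6st, which carries the signal for the whole cytokine family. Kinases bound to gp130, JAK1 and JAK2 among them, then phosphorylate STAT3, which enters the nucleus and switches on acute phase genes in hepatocytes, together with C/EBP factors. SOCS3 is made in response and shuts gp130 down again, and the IL-1 receptor antagonist, the product of Il1rn, is a secreted protein of the same inflammatory response that blocks IL-1. The activity of STAT3 depends on its phosphorylation, which mRNA levels do not measure.

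The promoters of the 4 genes on which the results turn are printed here, 3 of them genes that were higher in antiCD47 and the fourth, Socs3, the feedback inhibitor that did not pass. Each is the 250 bases upstream of a transcription start from RefSeq (build GRCm38.p6), read 5′ to 3′ along the gene. The window is chr13:112463820-112464069 on the plus strand for Il6st, and the others lie on the minus strand at chr4:101265224-101265473 for Jak1, chr11:100939541-100939790 for Stat3 and chr11:117969367-117969616 for Socs3. Capitals mark a match to the STAT motif TTCNNNGAA, which reads the same on both strands.
Il6st: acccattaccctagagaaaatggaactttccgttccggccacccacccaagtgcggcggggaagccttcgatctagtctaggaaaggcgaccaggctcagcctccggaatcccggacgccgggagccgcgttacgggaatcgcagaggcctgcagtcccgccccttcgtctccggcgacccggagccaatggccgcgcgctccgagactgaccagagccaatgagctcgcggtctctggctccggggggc
Jak1: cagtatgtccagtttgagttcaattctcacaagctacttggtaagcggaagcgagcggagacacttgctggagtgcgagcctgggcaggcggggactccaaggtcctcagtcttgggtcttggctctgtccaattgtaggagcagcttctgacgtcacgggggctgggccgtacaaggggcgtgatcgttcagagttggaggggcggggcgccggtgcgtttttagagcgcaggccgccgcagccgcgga
Stat3: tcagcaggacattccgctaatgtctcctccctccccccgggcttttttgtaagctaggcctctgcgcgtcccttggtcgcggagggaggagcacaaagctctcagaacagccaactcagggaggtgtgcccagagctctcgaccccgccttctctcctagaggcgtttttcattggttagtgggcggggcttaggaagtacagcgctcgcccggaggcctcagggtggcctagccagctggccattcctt
Socs3: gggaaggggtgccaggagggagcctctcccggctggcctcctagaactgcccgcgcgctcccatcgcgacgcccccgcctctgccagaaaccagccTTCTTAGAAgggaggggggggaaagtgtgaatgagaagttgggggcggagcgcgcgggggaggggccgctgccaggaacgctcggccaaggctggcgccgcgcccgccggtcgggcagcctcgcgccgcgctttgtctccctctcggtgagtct
The only match among the 10 genes was TTCTTAGAA in Socs3, whose first base lies 154 bases upstream of the start. RefSeq windows were found for 9 of the 10 genes, 11 windows in all, and 1 of these 11 held the STAT motif, against 7.02% of all 32851 windows of this length. The C/EBP motif TTGCNNAA, searched on both strands, was in 0 of the 11 windows and in 9.56% of all windows. A match is a description of the letters only, and no data on binding to these windows were analysed here.

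Depth ran from 43691472 to 55477484 counts per library. Of 15472 genes tested, 842 were higher and 836 lower in antiCD47 (edgeR quasi-likelihood test, Benjamini-Hochberg adjusted p under 0.05, two-sided). With library totals in place of TMM, 428 were higher and 3153 lower and the median log2 fold change over all genes shifted to -0.19, and with the upper quartile the counts were 634 and 969. The 6 hepatocyte markers were present in every library and summed to between 54350 and 68840 CPM (CPM, the share of the TMM-scaled library size times 10 to the power 6). Alb alone was at 41020 to 52170 CPM. Of the 6, 1 was higher and 0 lower: Hnf4a, at log2 0.58 ± 0.15 (edgeR adjusted p = 0.0382). Its call was lost without IgG 1, IgG 3, IgG 4, antiCD47 2 or antiCD47 3. IgG 2 was the highest IgG library in 7 of the 10 genes, where it was highest in 29.4% of all genes tested. It lay far above the other IgG livers in Stat3 (170.0 CPM) and Socs3 (30.36 CPM). In Il6ra it was only just the highest, at 70.71 CPM beside 70.52 CPM in IgG 1. Results that rest on IgG 2 are given with and without it.

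Of the 10 genes, 3 were higher in antiCD47 (Il6st, Stat3 and Jak1), 0 were lower and 7 did not pass, beside 5.44% of all tested genes called higher by the same rule. By unadjusted p under 0.05, 5 were higher and 0 lower (Osmr and Il1rn in addition), and DESeq2 called 4 higher and 0 lower, limma voom 3 and 0. The same 3 genes were those in which all 4 antiCD47 libraries lay above all 4 IgG libraries, against 9.51% of all genes tested. The median log2 fold change over the 10 genes was 0.35, and -0.0064 over all genes. The number called depended on single libraries, being 0 without IgG 1, without IgG 3, without IgG 4 or without antiCD47 3, and 4 without antiCD47 1. Over the 8 fits that each left out a library, the 3 genes kept their direction, with unadjusted p of at most 0.00868 (edgeR). These fits share most of their libraries and the 3 genes were picked with all of them, so this is no independent support.

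Around these 10, 107 further genes of the pathway were followed in lists by role. Their calls depended on the same livers, as did the number called over all genes. Of 99 tested, 31 passed, 26 higher and 5 lower, beside 842 higher and 836 lower of all 15472 genes. The acute phase list holds 16 of the 26. Of the 31 pathway genes that passed, 30 were lost without IgG 1, and 31 each without IgG 3, without IgG 4 and without antiCD47 3. Without antiCD47 2, 12 were lost, without IgG 2 5, without antiCD47 4 2 and without antiCD47 1 0. In all of these fits the 31 genes kept their direction, and the largest unadjusted p was 0.017, which is no independent support since the genes were chosen with all libraries.

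**Figure D1:**
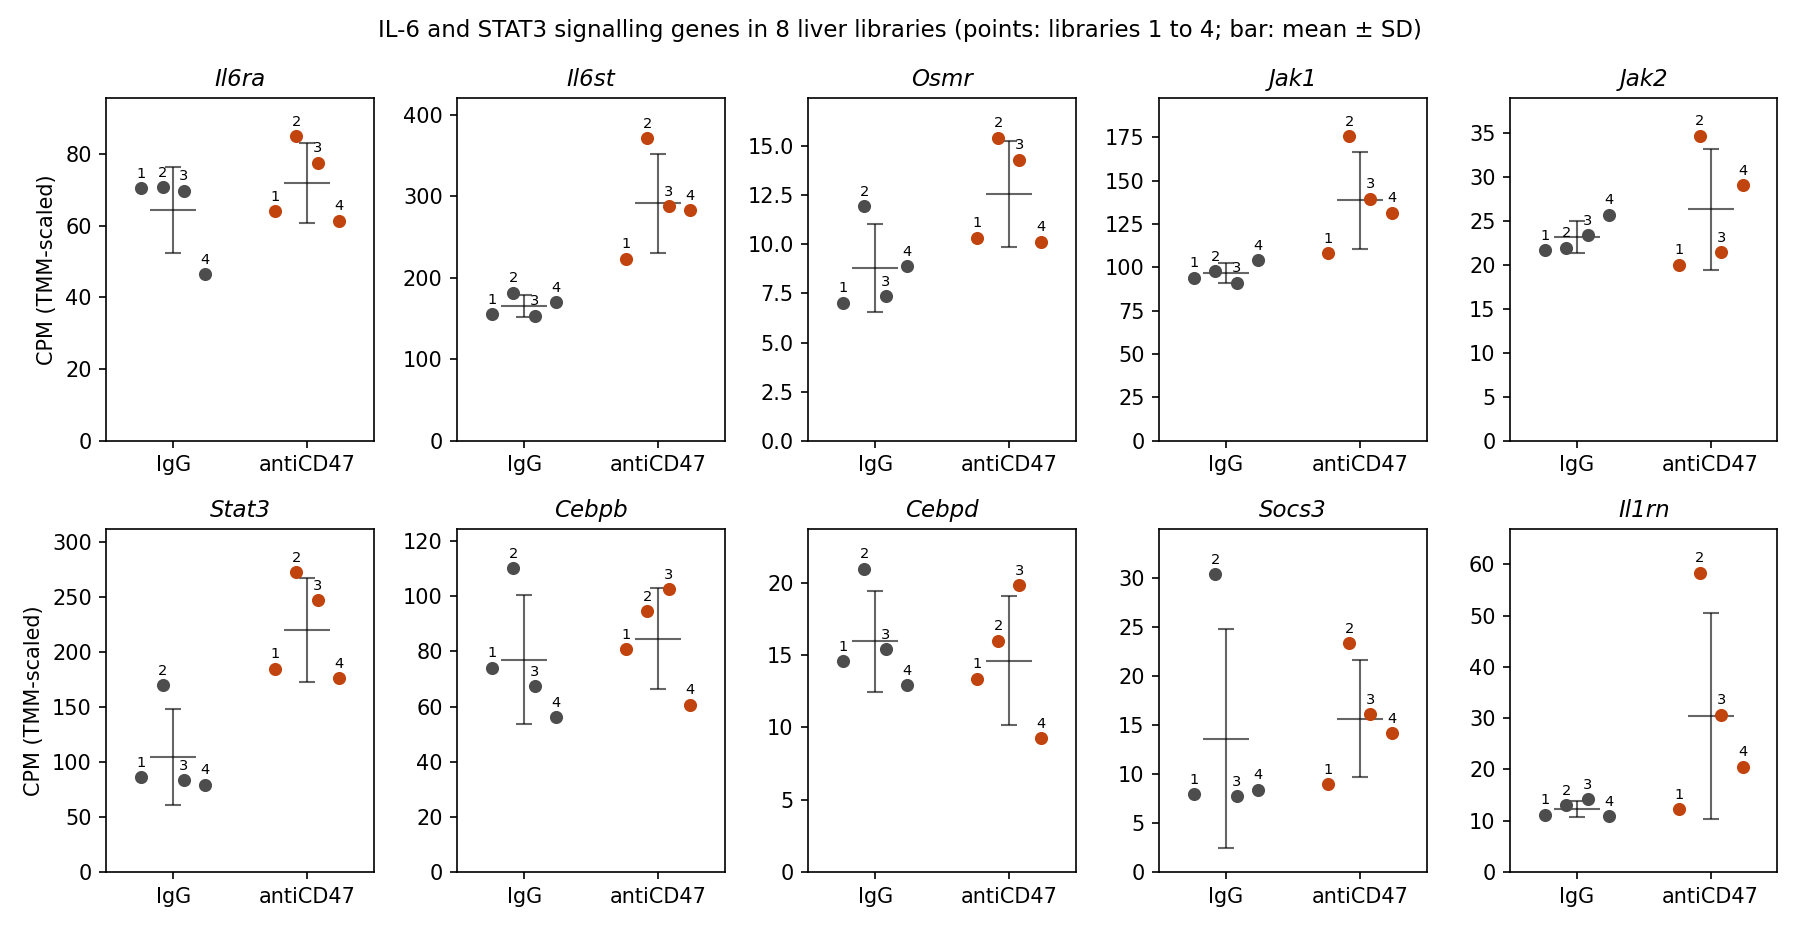
CPM of each of the 10 genes in the 8 libraries (points, libraries 1 to 4 of each group; bars, mean ± SD, n = 4). Il6st, Stat3 and Jak1 show 4 antiCD47 libraries above every IgG library, and in Stat3 and Socs3 the IgG 2 point lies far above the other IgG points, at 170.0 and 30.36 CPM.

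Among the receptors, gp130 was the one that rose. Il6st was at 155.1, 181.7, 153.5 and 170.0 CPM in IgG 1 to 4 and at 223.3, 371.1, 287.6 and 282.4 CPM in antiCD47 1 to 4. The IgG livers lay close together, and the lowest antiCD47 liver stood above the highest of them. The mean went from 165.1 ± 13.35 to 291.1 ± 60.8 CPM (SD, n = 4 each), which is 0.82 ± 0.14 as a log2 fold change with its SE (edgeR adjusted p = 0.0164). It was 0.87 without IgG 2 (edgeR adjusted p = 0.0194), and the call was lost without IgG 1, IgG 3, IgG 4 or antiCD47 3 (edgeR adjusted p = 0.0544 to 0.0605). In these bulk samples, more cells of a type and more RNA per cell cannot be told apart.

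Il6ra, the subunit that binds IL-6 itself, had 70.52, 70.71, 69.8 and 46.5 CPM in IgG 1 to 4 and 63.96, 85.0, 77.59 and 61.42 CPM in antiCD47 1 to 4. The groups overlapped, with IgG 4 below every other library. Its log2 fold change of 0.16 ± 0.15 did not pass (edgeR adjusted p = 0.487). Within a library the ratio of Il6ra to Il6st CPM, in which gene length cancels between libraries, averaged 0.393 ± 0.0855 over the 4 IgG livers and 0.251 ± 0.0327 over the 4 antiCD47 livers (± SD). The ratio was 0.274 in IgG 4 and 0.286 in antiCD47 1, so the groups overlapped. Il6st, the denominator, was itself higher in antiCD47, so the ratio is not a separate result on Il6ra.

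Osmr encodes the partner that joins gp130 in the oncostatin M receptor. Its levels were 7.023, 11.95, 7.373 and 8.885 CPM in IgG 1 to 4 and 10.35, 15.43, 14.31 and 10.14 CPM in antiCD47 1 to 4. Only IgG 2 reached into the antiCD47 range: 2 antiCD47 libraries lay above it and 2 below. The log2 fold change was 0.51 ± 0.20 (edgeR adjusted p = 0.109) with all libraries and 0.70 ± 0.18 without IgG 2 (edgeR adjusted p = 0.0438), so whether it passed depended on that library. The authors' deposited table gave Osmr an adjusted p of 0.0360.

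Of the other receptors of the family, 0 of 4 tested passed by edgeR (1 higher at an unadjusted p under 0.05, 1 higher by DESeq2 and 0 by limma voom). Lifr, the leukemia inhibitory factor receptor, which also signals with gp130, was at 68.05 ± 6.76 CPM in IgG and 86.92 ± 15.4 CPM in antiCD47 (log2 0.35 ± 0.12, edgeR adjusted p = 0.0882). Cntfr, the ciliary neurotrophic factor receptor, had 13.19 CPM in antiCD47 2 and 4.29 to 7.388 CPM in the other 7 libraries. Il11ra1, which binds IL-11, was at 19.23 ± 0.80 and 17.97 ± 1.08 CPM (log2 -0.10 ± 0.07, edgeR adjusted p = 0.353).

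The cytokines themselves were scarce in whole liver RNA. For Il6 the IgG livers together gave 6 counts and the antiCD47 livers 13, and for Osm, oncostatin M, the sums were 30 and 22. Both were under the filter on low counts, and no difference is read from so few counts. Of 11 ligand genes 5 passed the filter, and of these 0 were higher and 2 were lower; with no filter 10 were tested, with the same counts of calls. By unadjusted p under 0.05, 2 were higher and 2 lower, and DESeq2 and limma voom each called 0 higher and 2 lower.

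The ligands that fell were Clcf1, a cytokine that acts through the ciliary neurotrophic factor receptor, and Ctf1, cardiotrophin 1. Clcf1 fell from 2.25 ± 0.42 to 1.19 ± 0.31 CPM (log2 -0.92 ± 0.23, edgeR adjusted p = 0.0366) and Ctf1 from 5.86 ± 0.47 to 3.92 ± 0.88 CPM (log2 -0.58 ± 0.16, edgeR adjusted p = 0.0459). In both the 4 antiCD47 libraries lay below every IgG library. Cntf, ciliary neurotrophic factor, went the other way without passing, from 0.52 ± 0.06 to 0.79 ± 0.13 CPM (log2 0.60 ± 0.22, edgeR adjusted p = 0.0986). Ebi3, a subunit of IL-27, was at 1.06 ± 0.16 and 1.53 ± 0.32 CPM (log2 0.53 ± 0.21, edgeR adjusted p = 0.116). Without IgG 2, Ctf1 no longer passed (edgeR adjusted p = 0.0782). Markers of cholangiocytes, the cells that line bile ducts, were lower alongside these ligands: 5 of 6 fell, 4 without IgG 2, 2 each without IgG 1, IgG 3 or antiCD47 2 and 0 without IgG 4 or antiCD47 3. Their summed level was 398.5 to 546.9 CPM in IgG and 95.33 to 329.1 CPM in antiCD47, and 0 of the 6 were at 0 in all libraries. Their part in these falls was not tested.

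Of the kinases below gp130, Jak1 rose and Jak2 did not pass. Jak1 was at 93.93, 97.78, 91.12 and 104.0 CPM in IgG 1 to 4 and at 108.2, 175.4, 139.5 and 131.4 CPM in antiCD47 1 to 4. The groups did not overlap, but antiCD47 1 lay only just above IgG 4. The mean went from 96.7 ± 5.57 to 138.6 ± 27.9 CPM, a log2 fold change of 0.52 ± 0.13 (edgeR adjusted p = 0.0357). This call was lost when IgG 1, IgG 2, IgG 3, IgG 4 or antiCD47 3 was left out (edgeR adjusted p = 0.0567 to 0.102) and with scaling by library totals (0.33, edgeR adjusted p = 0.0667).

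Jak2, the kinase also used by the growth hormone receptor, was at 21.68, 21.93, 23.38 and 25.69 CPM in IgG 1 to 4 and at 20.03, 34.68, 21.46 and 29.04 CPM in antiCD47 1 to 4. Both the lowest and the highest library of Jak2 were antiCD47 livers. The log2 fold change was 0.18 ± 0.16 (edgeR adjusted p = 0.462), and 0.02 without antiCD47 2. The ratio of Jak2 to Jak1 CPM was 0.224 to 0.257 in the IgG libraries and 0.154 to 0.221 in the antiCD47 libraries. These ranges do not overlap and are given without a test. Jak1, the denominator, was itself higher in antiCD47, so the ratio is not a separate result on Jak2.

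STAT3 itself had the largest log2 fold change of the 3 genes that passed. Stat3 was at 86.04, 170.0, 83.2 and 79.33 CPM in IgG 1 to 4 and at 184.9, 272.7, 246.9 and 175.9 CPM in antiCD47 1 to 4. The groups did not overlap, yet IgG 2 reached nearly the level of antiCD47 4, while the other 3 IgG livers lay within a few CPM of each other. From 104.6 ± 43.7 CPM in IgG the mean went to 220.1 ± 47.2 CPM in antiCD47, a log2 fold change of 1.07 ± 0.26 (edgeR adjusted p = 0.0324). Without IgG 2 it was 1.41 ± 0.16 (edgeR adjusted p = 0.0101). The call was lost without IgG 1, IgG 3, IgG 4, antiCD47 2 or antiCD47 3 (log2 0.95 to 1.01, edgeR adjusted p = 0.0701 to 0.0959).

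The other 8 tested JAK and STAT genes gave 0 calls by edgeR, with 3 higher and 0 lower at an unadjusted p under 0.05, 2 higher by DESeq2 and 0 by limma voom. Their median log2 fold change was 0.21. Stat2, a factor of interferon signalling, was at 37.27 ± 6.86 and 53.32 ± 12.4 CPM (log2 0.52 ± 0.18, edgeR adjusted p = 0.0804). Jak3, a kinase of lymphocyte cytokine receptors, was at 14.92 ± 1.84 and 18.92 ± 2.32 CPM (log2 0.34 ± 0.11, edgeR adjusted p = 0.0736) and passed without IgG 2 (edgeR adjusted p = 0.0422), as did Stat5a, a factor of growth hormone signalling (log2 0.36 ± 0.09, edgeR adjusted p = 0.0479). Tyk2, the remaining kinase of the family, was at 18.49 ± 1.41 and 18.00 ± 1.70 CPM (log2 -0.04 ± 0.09, edgeR adjusted p = 0.787). Stat6, the factor of IL-4 signalling, was at log2 0.19 ± 0.08 (edgeR adjusted p = 0.151).

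**Figure D2:**
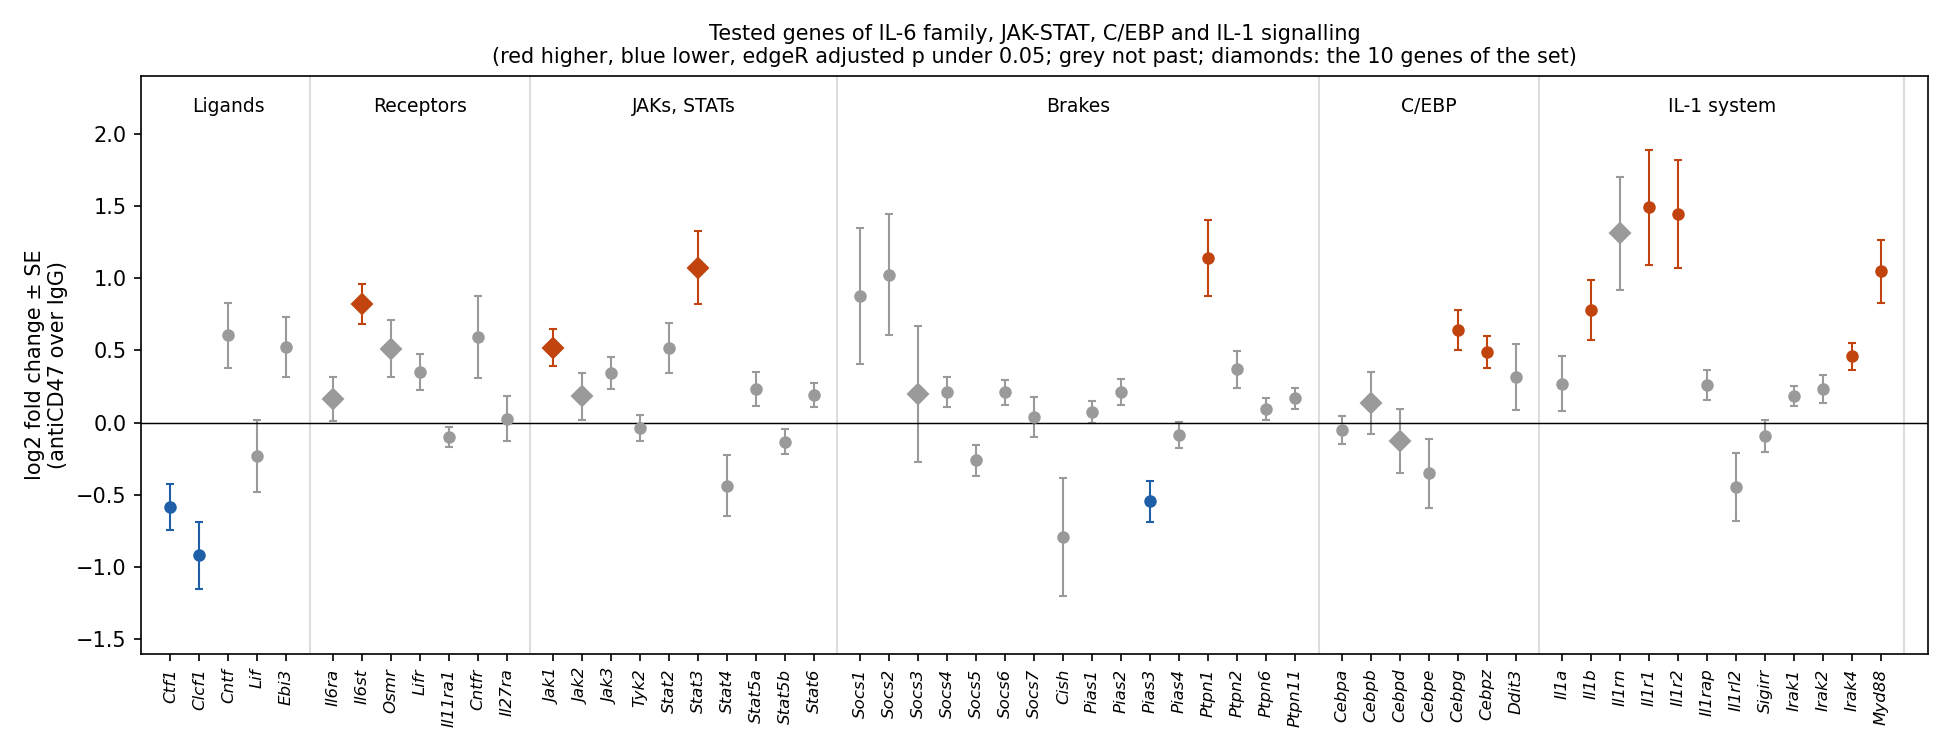
Log2 fold change of antiCD47 over IgG (± SE, edgeR) for tested genes of each role, with the 10 genes as diamonds. Red points passed as higher, blue as lower and grey did not pass; Il6st, Stat3 and Jak1 are the red diamonds, at 0.82, 1.07 and 0.52.

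The C/EBP factors that act beside STAT3 on acute phase promoters did not pass. Cebpb was at 74.12, 110.2, 67.36 and 56.11 CPM in IgG 1 to 4 and at 80.72, 94.62, 102.5 and 60.68 CPM in antiCD47 1 to 4. Its highest library of all was IgG 2, and the groups overlapped over nearly their whole range. The log2 fold change was 0.14 ± 0.21 (edgeR adjusted p = 0.686), and 0.36 without IgG 2.

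Cebpd, the family member best known as an early responder to inflammation, was at 14.57, 20.97, 15.42 and 12.9 CPM in IgG 1 to 4 and at 13.36, 16.01, 19.86 and 9.241 CPM in antiCD47 1 to 4. Here too IgG 2 was the highest library and the lowest was antiCD47 4. The log2 fold change was -0.13 ± 0.22 (edgeR adjusted p = 0.724), and its sign turned when IgG 2 (0.04) or antiCD47 4 (0.05) was left out.

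Of the other 5 C/EBP genes 2 rose, Cebpg and Cebpz, and 0 fell (at an unadjusted p under 0.05, by DESeq2 and by limma voom also 2 and 0). Cebpg, a partner factor without an activation domain of its own, rose from 64.27 ± 4.51 to 100.2 ± 22.3 CPM (log2 0.64 ± 0.14, edgeR adjusted p = 0.0280). Cebpz, a CCAAT-binding protein that is not a leucine zipper factor like the others, rose from 31.80 ± 1.16 to 44.58 ± 7.65 CPM (log2 0.49 ± 0.11, edgeR adjusted p = 0.0291; 0.0508 without IgG 2). Cebpa, the factor of resting hepatocytes, was at 254.1 ± 25.4 and 245.6 ± 26.2 CPM (log2 -0.05 ± 0.10, edgeR adjusted p = 0.757). The ratio of Cebpb to Cebpa CPM was 0.312 ± 0.127 in IgG and 0.350 ± 0.103 in antiCD47, a difference within the spread of either group.

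In Socs3, the feedback inhibitor of gp130, a single control liver stood above every other library. Its levels were 7.948, 30.36, 7.708 and 8.367 CPM in IgG 1 to 4 and 8.931, 23.3, 16.08 and 14.13 CPM in antiCD47 1 to 4. All 4 antiCD47 libraries lay above IgG 1, 3 and 4, and all 4 lay below IgG 2. With all libraries the log2 fold change was 0.20 ± 0.47 (edgeR adjusted p = 0.797). Without IgG 2 it was 0.97 ± 0.27 and still did not pass (edgeR adjusted p = 0.0568), and without antiCD47 2 it was -0.06. The ratio of Socs3 to Stat3 CPM was 0.0924, 0.179, 0.0926 and 0.105 in IgG 1 to 4 and 0.0483, 0.0854, 0.0651 and 0.0803 in antiCD47 1 to 4. Every antiCD47 library had less Socs3 for its Stat3 than every IgG library, which is given without a test. Stat3, the denominator, was itself higher in all 4 antiCD47 libraries, so the ratio is not a separate result on Socs3.

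Among the other 15 tested brakes on the relay, 1 rose and 1 fell (6 higher and 2 lower at an unadjusted p under 0.05). Ptpn1, a phosphatase that removes phosphate from JAK kinases and from the insulin receptor, was at 28.22, 50.14, 29.06 and 31.36 CPM in IgG 1 to 4 and at 52.57, 105.8, 92.07 and 55.68 CPM in antiCD47 1 to 4. IgG 2 was again high among the controls but below the lowest antiCD47 library. The log2 fold change was 1.14 ± 0.26 (edgeR adjusted p = 0.0302), and 1.38 ± 0.25 without IgG 2. Pias3, a protein inhibitor of STAT3, fell from 6.92 ± 0.51 to 4.75 ± 0.97 CPM (log2 -0.54 ± 0.14, edgeR adjusted p = 0.0421), with no overlap between the groups. The part of the cholangiocyte markers, of which 5 of 6 fell, was not tested here either.

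Socs2, an inhibitor of growth hormone signalling, ranged widely in the controls, from 10.04 to 42.08 CPM, beside 25.68 to 50.10 CPM in antiCD47 (log2 1.02 ± 0.42, edgeR adjusted p = 0.126). Ptpn2, a phosphatase of STAT proteins, was at 11.05 ± 0.90 and 14.28 ± 2.63 CPM (log2 0.37 ± 0.13, edgeR adjusted p = 0.088). Of 5 genes of receptor shedding, by which the IL-6 receptor is cut from the cell surface, 1 fell and 0 rose (1 and 1 at an unadjusted p under 0.05, 1 lower and 0 higher by DESeq2 and by limma voom). Timp3, an inhibitor of the shedding protease ADAM17, fell from 117.2 ± 27.9 to 66.24 ± 5.44 CPM (log2 -0.82 ± 0.16, edgeR adjusted p = 0.0205). Adam17 was at 21.42 ± 1.47 and 25.79 ± 6.08 CPM (log2 0.27 ± 0.15, edgeR adjusted p = 0.235). Stellate cells are a known source of Timp3, and of 8 stellate cell markers the 3 that fell were the collagen genes Col1a1, Col1a2 and Col3a1 (2 fell without IgG 3 and 0 without IgG 4 or antiCD47 3). The summed level of the 8 was 834.4 to 1179 CPM in IgG and 548.0 to 751.1 CPM in antiCD47. At an unadjusted p under 0.05 and by DESeq2, 4 of the 8 were lower. The stellate cell markers Lrat, Reln and Des did not pass, at log2 fold changes of -0.04 ± 0.16, 0.17 ± 0.09 and 0.18 ± 0.13. Pdgfrb and Dcn did not pass either but were lower in all 19 other fits. Pdgfrb ran from -0.62 to -0.32 and passed in 5 of them, and Dcn ran from -0.31 to -0.05 and passed in 0. The part of these cells in the result was not tested.

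Il1rn had, of the 10 genes, the widest spread among antiCD47 livers relative to its mean. It was at 11.17, 12.97, 14.15 and 10.87 CPM in IgG 1 to 4 and at 12.22, 58.36, 30.7 and 20.5 CPM in antiCD47 1 to 4. AntiCD47 1 lay within the IgG range and the other 3 antiCD47 livers lay above it. The mean went from 12.3 ± 1.55 to 30.4 ± 20.1 CPM, a log2 fold change of 1.31 ± 0.39 that did not pass (edgeR adjusted p = 0.0585). It was 0.78 without antiCD47 2 and 1.57 without antiCD47 1, where it passed (edgeR adjusted p = 0.0105). DESeq2 gave an adjusted p of 0.0363, and in the authors' deposited table Il1rn was at 0.0401.

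Neutrophil and Kupffer cell markers were also higher in antiCD47. Il1rn is a gene that neutrophils and macrophages express as well as hepatocytes. Of 10 neutrophil markers 8 were tested and these 8 rose. The summed level of the 10 was 6.67 to 9.20 CPM in IgG and 16.3 to 35.5 CPM in antiCD47. Ly6g, the defining marker, had 0 counts in IgG and 15 in antiCD47, and Camp had 12 and 31. Both were under the filter on low counts, and no difference is read from so few counts. Of 9 Kupffer cell markers 7 rose, with a summed level of 180.0 to 333.2 CPM in IgG and 356.4 to 643.9 CPM in antiCD47, and 0 of the 9 were at 0 in all libraries. In antiCD47 1 both summed levels lay above every IgG library, whereas Il1rn there lay within the IgG range. Without IgG 4 or without antiCD47 3 no marker of either list passed, without antiCD47 2 the counts were 4 and 3, and without IgG 2 they were 5 and 4. Without IgG 1 they were 1 and 1, and without IgG 3 0 and 5. Of 5 monocyte markers 2 rose and 0 fell, with a summed level of 29.5 to 41.42 CPM in IgG and 26.83 to 42.34 CPM in antiCD47, and Cx3cr1 was at -0.96 ± 0.34 on the log2 scale without passing (edgeR adjusted p = 0.0873). Their part in the result was not tested.

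The IL-1 system around the antagonist rose in 5 of its 11 other tested genes and fell in 0 (8 higher and 0 lower at an unadjusted p under 0.05, 5 and 0 by DESeq2 and by limma voom, 3 and 0 without IgG 2, 2 and 0 without antiCD47 2). Il1r1, the signalling receptor that the antagonist occupies, was at 72.90, 152.9, 66.86 and 52.93 CPM in IgG 1 to 4 and at 205.0, 324.9, 330.4 and 110.9 CPM in antiCD47 1 to 4. IgG 2 exceeded antiCD47 4, and otherwise the groups were apart. The log2 fold change was 1.49 ± 0.40 (edgeR adjusted p = 0.0438), and 1.92 ± 0.35 without IgG 2 (edgeR adjusted p = 0.0205).

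Il1r2, the decoy receptor typical of neutrophils, had 48 counts in IgG and 120 in antiCD47 (log2 1.44 ± 0.37, edgeR adjusted p = 0.0403). Il1b, the cytokine, rose from 1.85 ± 0.35 to 3.17 ± 0.73 CPM (log2 0.78 ± 0.21, edgeR adjusted p = 0.0438). Neither passed without IgG 2 (edgeR adjusted p = 0.0764 and 0.0759). Genes of the steps below the receptor rose as well. Myd88, the adapter, rose from 18.51 ± 4.59 to 38.26 ± 10.8 CPM (log2 1.05 ± 0.22, edgeR adjusted p = 0.0257). Irak4, the first kinase after MyD88, rose from 12.94 ± 0.88 to 17.79 ± 1.93 CPM (log2 0.46 ± 0.09, edgeR adjusted p = 0.0238). Il1rap, the accessory receptor chain, was at 90.70 ± 5.16 and 108.8 ± 16.8 CPM (log2 0.26 ± 0.10, edgeR adjusted p = 0.114).

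Other receptors that use JAK kinases gave 2 higher and 0 lower of 14 (4 and 0 at an unadjusted p under 0.05, 2 and 0 by DESeq2, 1 and 0 by limma voom). Il13ra1, a receptor chain for IL-13 and IL-4, rose from 36.77 ± 7.04 to 74.67 ± 15.2 CPM (log2 1.02 ± 0.17, edgeR adjusted p = 0.016). Csf3r, the receptor for granulocyte colony-stimulating factor and one of the neutrophil markers counted above, rose from 3.14 ± 0.32 to 5.25 ± 1.69 CPM (log2 0.74 ± 0.20, edgeR adjusted p = 0.0478). Without IgG 2 it was at 0.69 ± 0.23 and did not pass (edgeR adjusted p = 0.0874). Lepr, the leptin receptor, stood at 54.25 CPM in antiCD47 2 and between 7.857 and 18.27 CPM elsewhere (log2 1.06 ± 0.49, edgeR adjusted p = 0.166).

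Downstream of STAT3, early target genes and acute phase genes differed in how many passed. Of 13 early targets outside the 10 genes, 0 were higher and 1 was lower (6 and 2 at an unadjusted p under 0.05, 2 and 2 by DESeq2, 1 and 1 by limma voom, 3 and 2 without IgG 2), whereas 16 of 20 acute phase genes were higher and 0 lower (19 and 0 at an unadjusted p under 0.05, 19 and 0 by DESeq2, 16 and 0 by limma voom, 19 and 0 without IgG 2). The acute phase genes had a median log2 fold change of 1.44 and the early targets one of 0.19. The difference between the lists was not tested.

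Among the early targets that did not pass with all libraries were Nfil3, Bcl3, Icam1 and Myc. Nfil3, a basic leucine zipper factor, was at 12.38, 26.04, 12.53 and 12.17 CPM in IgG 1 to 4 and at 25.63, 38.52, 35.39 and 21.19 CPM in antiCD47 1 to 4 (log2 0.94 ± 0.28, edgeR adjusted p = 0.0583). Without IgG 2 it passed, at 1.29 ± 0.20 (edgeR adjusted p = 0.0151). Bcl3, a nuclear regulator of NF-κB, had 58.44 CPM in IgG 2 and 17.74 to 20.80 CPM in the other IgG livers, against 36.11 to 83.15 CPM in antiCD47. With all libraries it did not pass (log2 0.98 ± 0.41, edgeR adjusted p = 0.135), and without IgG 2 it did (1.56 ± 0.28, edgeR adjusted p = 0.0201).

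Icam1, an adhesion molecule, was at 21.41 ± 4.98 and 45.42 ± 23.1 CPM (log2 1.08 ± 0.32, edgeR adjusted p = 0.0585). Myc, the growth regulator, lay in the opposite direction: it had 11.27, 8.657, 39.71 and 29.84 CPM in IgG 1 to 4 and 7.843 to 9.426 CPM in antiCD47 (log2 -1.39 ± 0.43, edgeR adjusted p = 0.0631). IgG 3 and IgG 4 were the high libraries of Myc, and IgG 2 lay within the antiCD47 range. Without IgG 2, Myc passed as lower (-1.65 ± 0.34, edgeR adjusted p = 0.0275). The early target that fell with all libraries was Bcl2l1, which encodes the survival protein BCL-XL, from 50.33 ± 3.32 to 40.70 ± 0.94 CPM (log2 -0.31 ± 0.06, edgeR adjusted p = 0.0258). Junb, chosen after its values were seen, had 66.22 CPM in IgG 2 and 21.06 to 32.26 CPM in the other 7 libraries.

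Among the acute phase genes, Saa2, Saa1 and lipocalin 2 are given first. Saa2, a serum amyloid A gene, was at 152.8, 571.6, 112.5 and 109.3 CPM in IgG 1 to 4 and at 1258, 3343, 3663 and 1352 CPM in antiCD47 1 to 4, a log2 fold change of 3.35 ± 0.63 (edgeR adjusted p = 0.0205) and of 4.27 ± 0.46 without IgG 2. Saa1, its near-identical neighbour, with which reads may be split uncertainly, was at 2.75 ± 0.58 (edgeR adjusted p = 0.0258) and at 3.65 ± 0.39 without IgG 2. In both, IgG 2 was several times higher than the other controls and still below every antiCD47 liver. Lcn2, lipocalin 2, showed the same order, with 333.5 CPM in IgG 2, 83.34 to 111.2 CPM in the other IgG livers and 429.8 to 1263 CPM in antiCD47 (log2 2.31 ± 0.52, edgeR adjusted p = 0.0282). Without IgG 2 it was at 2.98 ± 0.42.

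Lbp, the lipopolysaccharide-binding protein, rose from 65.31 ± 19.1 to 221.2 ± 89.0 CPM (log2 1.76 ± 0.30, edgeR adjusted p = 0.017). Fgb, the fibrinogen beta chain, rose from 2572 ± 878.0 to 6649 ± 2019 CPM (log2 1.37 ± 0.26, edgeR adjusted p = 0.021). Hamp encodes hepcidin, the iron hormone that IL-6 induces through STAT3, and rose by a log2 fold change of 1.14 ± 0.27 (edgeR adjusted p = 0.0315), with IgG 2 at 244.7 CPM above antiCD47 1 at 231.2 CPM. Hp, haptoglobin, had a log2 fold change of 0.74 ± 0.21 (edgeR adjusted p = 0.0485). The acute phase genes that did not pass were Lrg1, Hpx, Cp and Orm3. Their log2 fold changes were 0.99, 0.685, 0.34 and 0.55 (edgeR adjusted p = 0.0521, 0.0552, 0.0658 and 0.274). Lcn2 is expressed by neutrophils too, and their markers are given above beside Il1rn. Without IgG 2, 19 of the 20 acute phase genes were higher, without antiCD47 2 12 and without IgG 1, IgG 3, IgG 4 or antiCD47 3 0, and without IgG 2 the Hp value was 0.94 ± 0.18.

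**Figure D3:**
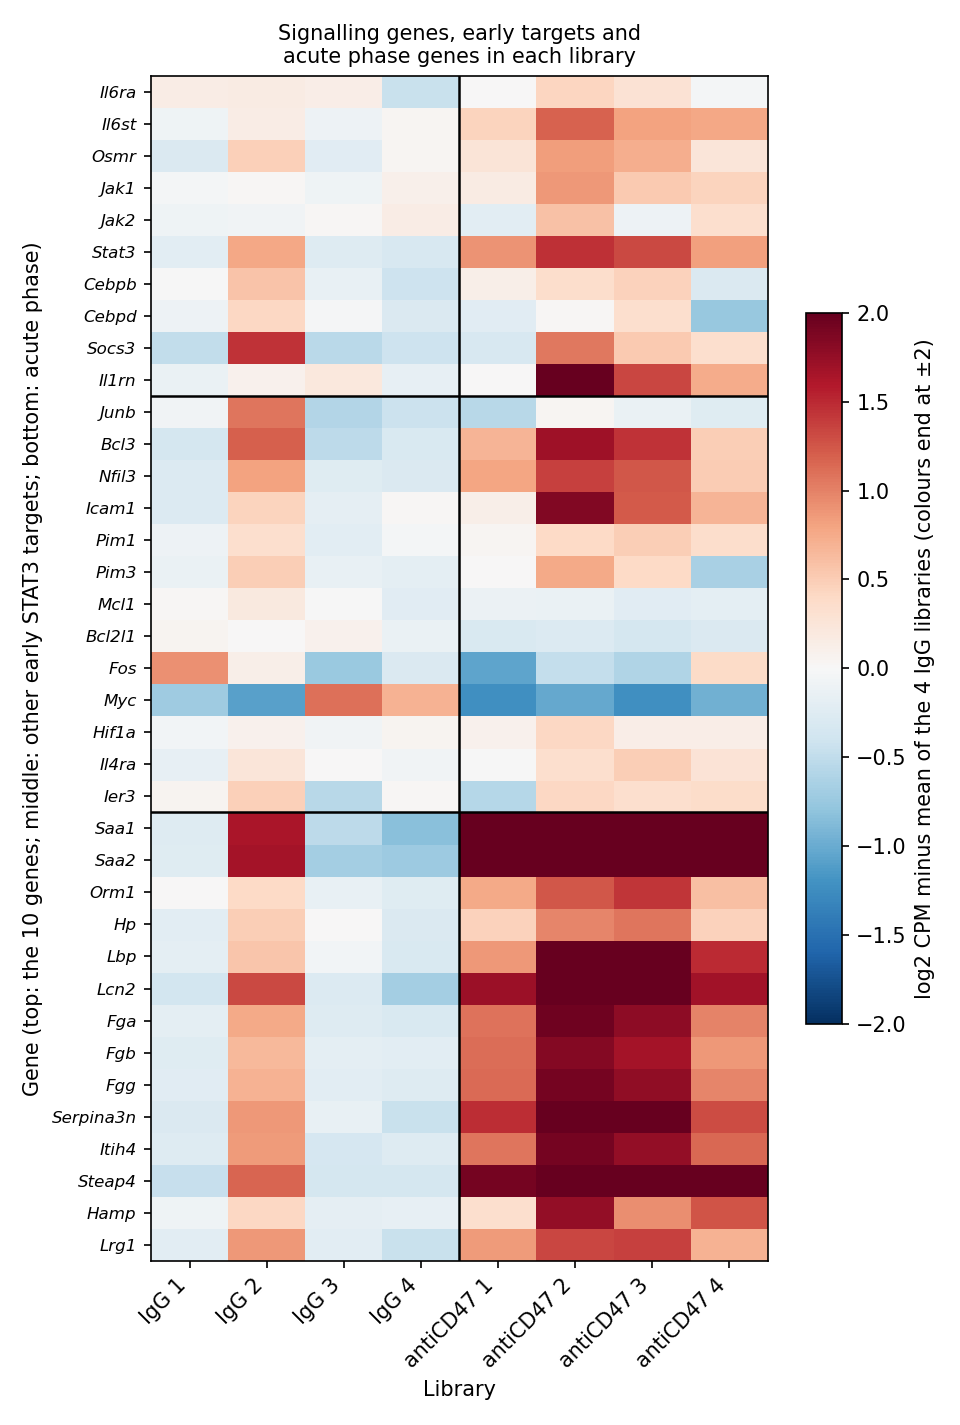
Log2 CPM of each gene minus its mean over the 4 IgG libraries, in columns for the libraries and rows for the 10 genes (top), 13 other early STAT3 targets (middle) and a selection of the acute phase genes (bottom). Colours end at a difference of 2 in either direction. Of the acute phase genes that did not pass, Lrg1 is shown and Hpx, Cp and Orm3 are not. The IgG 2 column is the highest of the IgG columns in 7 of the 10 top rows, and Saa1 and Saa2 are beyond the colour range in all 4 antiCD47 columns.

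Across libraries, the order of the livers was alike in many of these genes. IgG 2 was the highest IgG library in 13 of 16 early STAT3 targets and in 19 of 20 acute phase genes, beside 29.4% of all genes tested. AntiCD47 2 was the highest antiCD47 library in 8 of the 10 genes, beside 32.4% of all genes, and the lowest was antiCD47 1 in 5 and antiCD47 4 in the other 5. Some of these lists share genes with the 10, and genes of one liver are not independent, so the shares are descriptions.

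Pearson's r of log2 CPM over the 8 libraries, which includes the difference between the antibodies, named the genes most alike in pattern among 11982 others at a mean of at least 1 CPM. For Stat3 they were Fgl1 (r = 0.997), Itih4 (0.995) and Lrg1 (0.993), which encode proteins secreted by hepatocytes, and Itih4 and Lrg1 are on the acute phase list. For Il6st they were Ppfia1 (0.996), Ppm1l (0.996) and Fndc3b (0.994), and for Jak1 Slamf8 and Ube2j1 (0.996 each) and Ccdc127 (0.995). Il6st and Jak1 were close to each other as well (0.975), and so were Stat3 and Osmr (0.925). For Osmr the closest genes were Sbno2 (0.990), Cyp2c40 (0.984) and Arid5a (0.979).

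The genes that did not pass had other neighbours. Those of Socs3 were Sema4b (0.961), Tnfrsf1b (0.955) and Scly (0.940), and those of Il1rn Arfgap3 (0.990), Arcn1 (0.989) and Gadd45b (0.986). Il6ra was closest to Rabac1 (0.971), Phax (0.963) and Vkorc1 (0.944), and Jak2 to Dnajc18 (0.990), Gtf3c4 (0.984) and Sipa1l1 (0.971). Cebpb was closest to Atp6v0c (0.975), Snx7 and Mfsd2a (0.974 each), and Cebpd to Gpaa1 (0.959), Polr2d (0.932) and LOC118567384 (0.929). With 8 libraries and this many genes, a high r for some gene is found for any pattern, and no p is given.

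Levels between genes were compared per kilobase of the longest coding transcript. In IgG the order of the mean was Cebpb at 51.2 ± 15.6, Jak1 at 19.7 ± 1.14, Il6st at 19.0 ± 1.54 and Stat3 at 17.3 ± 7.23 CPM per kb. Below them came Il6ra at 7.45 ± 1.38, Socs3 at 5.33 ± 4.38, Il1rn at 4.97 ± 0.63, Jak2 at 4.61 ± 0.37, Cebpd at 4.26 ± 0.93 and Osmr at 1.60 ± 0.41 CPM per kb. Jak1, Il6st and Stat3 did not differ from each other beyond their SD, nor did Il6ra from Socs3 or the neighbours from Socs3 down to Cebpd. The receptor subunit that binds IL-6 was thus less abundant as mRNA than gp130, and Osmr the least abundant of the 10.

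In antiCD47 the order began with Cebpb at 56.3 ± 12.2, Stat3 at 36.4 ± 7.81, Il6st at 33.6 ± 7.00 and Jak1 at 28.3 ± 5.69 CPM per kb. Il1rn followed at 12.3 ± 8.12, then Il6ra at 8.33 ± 1.297, Socs3 at 6.12 ± 2.33, Jak2 at 5.23 ± 1.36, Cebpd at 3.90 ± 1.19 and Osmr at 2.29 ± 0.49 CPM per kb. Stat3 moved from the fourth place to the next after Cebpb; in antiCD47 its difference from Il6st was within the SD and its difference from Cebpb was larger than either SD.

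**Figure D4:**
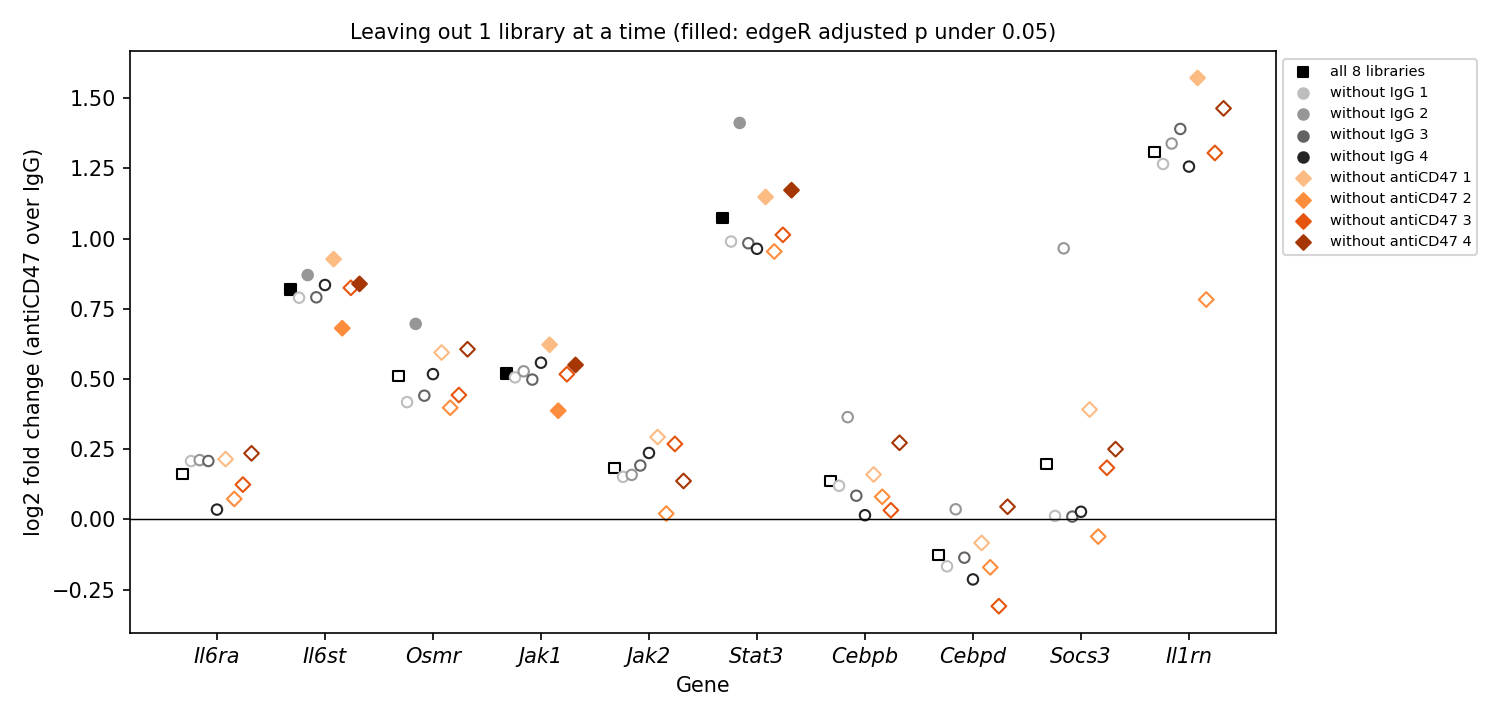
Log2 fold change (antiCD47 over IgG, edgeR) of each of the 10 genes with all libraries and with each library left out in turn; filled symbols passed an adjusted p of 0.05. Stat3 ran from 0.95 to 1.41, Il6st from 0.68 to 0.93 and Jak1 from 0.39 to 0.62, while Socs3 ran from -0.06 to 0.97.

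The authors' deposited table had 5 of the 10 genes under an adjusted p of 0.05: Il6st (4.59e-06), Stat3 (0.000537), Jak1 (0.00314), Osmr and Il1rn.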

How the data were processed

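Polyadenylated liver RNA was sequenced as Illumina TruSeq libraries, per the labels' protocols, 4 per antibody. The deposited table holds estimated counts per gene as whole numbers without normalization. Salmon 1.3.0, DESeq2 1.32.0 and GRCm39 are named, without roles, in the submitters' processing notes. Per the file headers, the authors' comparison table gives a mean normalized count (a signal), log2 fold change and standard error, p-values and a rank score; its adjusted p-values were used. Every column matched a sample title (0 unused).

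Genes were filtered by filterByExpr, scaled by TMM and compared by the two-sided quasi-likelihood F test of edgeR 4.0.16 (R 4.3.3), and p-values were adjusted by Benjamini-Hochberg over 15472 genes. The SE is the log2 fold change divided by the square root of F. The biological coefficient of variation was 16.7% (common dispersion 0.028). The code was tested on simulated data. No 2 libraries of a group agreed within sampling noise (chi-square per degree of freedom at least 25.963). Depth sets the counting precision, and no counting interval is given because the spread between livers is larger. Nothing links libraries to animals, so p-values measure the spread between libraries, which may be technical; the labels give no batch or date. The reference annotation is of an older build than GRCm39 and was used for names, transcript lengths and RefSeq promoters only.

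The 10 genes, the pathway and marker lists and the tests were chosen with earlier results of these data known. All 10 genes are named. Of the other pathway lists, any gene past the threshold may be named. Up to 4 others may be named for the smallest p, or as a ligand, receptor or kinase partner of the 10. For each of the 10 the 3 genes with the highest r are named. The rule did not cover the cell type markers. One gene of the lists enters the counts but is not reported here on its own. Alternatives were other scalings and filters, DESeq2 1.42.0, limma 3.58.1 voom with and without quality weights, a robust fit, a replicate block, other thresholds and leaving out libraries.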

Additional observations from a re-analysis of the deposited data

Results flagged for a closer look

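In 14 cases a single library lay far from the other 3 of its group, by a gap above Dixon's 95% critical value for 4 samples, among 116 groups of libraries examined; chance flags about 1 in 20 groups, and genes of one liver are not independent. In 13 of the 14 cases the library was IgG 2, as the highest of the IgG livers. It stood at 170.0 CPM for Stat3, 30.4 CPM for Socs3 and 50.1 CPM for the phosphatase gene Ptpn1. The adapter kinase gene Irak4 was at 14.3 CPM in IgG 2, and the early STAT3 targets Bcl3 and Nfil3 at 58.4 and 26.0 CPM. Among acute phase genes IgG 2 had 881 CPM for Saa1, 572 CPM for Saa2, 700 CPM for Steap4, 3890 CPM for Fgb, 245 CPM for Hamp, 334 CPM for Lcn2 and 806 CPM for Serpina3n. The remaining case was Il6ra in IgG 4, the lowest IgG liver, at 46.5 CPM. The 116 groups did not cover every gene of the lists, and gaps in genes outside them were not counted. Among the acute phase genes not covered, IgG 2 stood far above the other IgG livers in Fga, Fgg, Itih4, Lrg1 and Orm2. It was at 4212 CPM for Fga (others 2029 to 2189), 3131 CPM for Fgg (1621 to 1664) and 2326 CPM for Itih4 (1015 to 1077). For Lrg1 it was at 733.3 CPM (295.5 to 350.6) and for Orm2 at 112.9 CPM (44.96 to 56.54).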

How the results depend on the processing

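Over 19 other fits, Il6st passed in 15, Stat3 in 14 and Jak1 in 12, always as higher; Il1rn passed in 5 and Osmr in 3, and the other 5 genes in none. Of all genes, 1678 passed in the main comparison, 3581 with library totals, 3179 by DESeq2, 4331 by limma voom with quality weights and 1090 without both libraries numbered 2. An adjusted p of 0.1 gave 3574 genes and a 2-fold minimum 502. Leaving out 1 library gave 2 to 3630 genes, and 0 to 4 of the 10. Of the 10 genes, 5 passed with quality weights and 1, Stat3, at 2-fold. The same numbers in both groups did not pair the livers (same-number correlations of deviations 0.032, 0.157, -0.023 and 0.035), and with the number as a replicate block 2425 genes and 5 of the 10 passed, Osmr (adjusted p = 0.0417) and Il1rn (0.0477) in addition. Il6ra (-0.027), Jak2 (-0.011) and Cebpb (-0.050) changed sign with library totals, which lower the median of all genes to -0.19, Jak2 also without both libraries numbered 2 (-0.0057), and Cebpd with quality weights (0.075). With 1 library left out, Cebpd ran from -0.31 to 0.045 and Socs3 from -0.061 to 0.97; the cause of these differences was not tested. Depth limits the ligand genes, of which 6 of 11 were under the filter on low counts.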
